A study of Mus musculus with 4 samples.

Results

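The genes of 9 serotonin receptors were followed across 4 RNA sequencing libraries of sorted striatal spiny projection neurons. They were Htr1b, Htr1d, Htr1f and Htr5a, whose receptors couple to inhibitory Gi/o proteins, Htr2a and Htr2c, which couple to Gq, and Htr4, Htr6 and Htr7, which couple to stimulatory Gs. They are 9 of the 37620 genes in the deposited tables and were matched by gene symbol. The mouse annotation holds 14 serotonin receptor genes. The 9 were chosen on measured values, with earlier results of the same data known, and their level separates them from the other 5. The highest count of a member in any library was at least 65, for Htr1f, while the highest count among the other 5 genes was 9, for Htr1a and Htr5b. Levels therefore describe the choice and are not a finding, and the tests below are not independent support for any member.

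Neurons of the direct pathway (D1) were sorted on EGFP from Drd1-EGFP BAC mice, and neurons of the indirect pathway (D2) from Drd2-EGFP BAC mice, all male, aged 5 to 6 months and on a C57BL/6J background. The mice carried 1 zQ175 knock-in allele (Q175), an expanded CAG repeat in the endogenous Htt gene that models Huntington's disease, or were wild-type littermates (WT). Both genotypes of both cell types were sequenced as 1 library each, in which the cells of 4 animals (150000 from each) were pooled. Nothing was replicated, so the spread between animals is unknown, and the effect of cell type and that of reporter line, pool or sort cannot be told apart. All groups carried an EGFP reporter. Ratios between 2 libraries carry 95% counting intervals, which cover counting error only.

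Serotonin reaches the striatum through axons of the raphe nuclei and acts on spiny neurons and on the terminals that contact them. Gi/o-coupled receptors lower cyclic AMP and damp transmitter release, Gq-coupled receptors act through phospholipase C and calcium, and Gs-coupled receptors raise cyclic AMP. The 5-HT1B receptor (Htr1b) sits on axon terminals, those of spiny neurons in their target nuclei among them. The 5-HT2C receptor (Htr2c), whose RNA is edited by adenosine deaminases, and the 5-HT6 receptor (Htr6) are long known from the striatum.

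The libraries held 39444046 to 42787014 counts. Levels are given as CPM, the count relative to the library size after scaling by the trimmed mean of M values (TMM), and 1 CPM equals 38.2 to 43.8 counts. The sort markers followed the labels. Drd2 stood at 2076 and 1434 CPM in D2 WT and D2 Q175, against 8.58 and 3.37 CPM in D1 WT and D1 Q175. Drd1 stood at 1300 and 771 CPM in the D1 libraries, against 33.0 and 18.1 CPM in the D2 libraries. Counts of mitochondrially encoded genes made up 6.06% and 6.49% of the D1 WT and D2 WT libraries and 8.98% and 11.1% of the D1 Q175 and D2 Q175 libraries. Summed oligodendrocyte markers, 5 of 5 detected, stood at 308, 359, 334 and 432 CPM in D1 (WT, then Q175) and D2 (WT, then Q175). The 5 microglial markers summed to 11.4, 17.5, 17.6 and 22.6 CPM and the 5 astrocyte markers to 27.3, 32.6, 34.2 and 47.2 CPM in that order. All 3 sums and the mitochondrial share were higher in the Q175 library of each cell type, and their part in the receptor values was not tested. Fewer cells of a type and less RNA per cell cannot be told apart in such pools.

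The promoters of Htr1b, Htr2c and Htr7 are shown because Htr1b and Htr2c had the lowest and the highest called genotype estimates among the members and Htr7 the highest cell type estimate. Each is the stretch of 250 bases before the transcript start in RefSeq (GRCm38.p6), written 5′ to 3′ on the strand of the gene. Capitals mark matches, on either strand, to the CRE core TGACG, the EGR site GCGNGGGCG, the GC box GGGCGG, the TATA box TATAAA or the AP-1 site TGANTCA.
Htr1b at chr9:81633833-81634082, minus strand: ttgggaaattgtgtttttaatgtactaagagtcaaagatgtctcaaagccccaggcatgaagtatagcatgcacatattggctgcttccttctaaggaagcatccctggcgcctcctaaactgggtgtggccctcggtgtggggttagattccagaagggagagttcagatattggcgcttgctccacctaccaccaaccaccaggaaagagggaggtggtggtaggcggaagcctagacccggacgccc
Htr2c at chrX:146962263-146962512, plus strand: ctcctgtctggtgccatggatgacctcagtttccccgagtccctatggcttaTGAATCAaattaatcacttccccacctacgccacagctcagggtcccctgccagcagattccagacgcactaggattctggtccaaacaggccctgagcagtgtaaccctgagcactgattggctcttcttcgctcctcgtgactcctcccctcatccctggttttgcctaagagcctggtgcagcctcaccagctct
Htr7 at chr19:36057361-36057610, minus strand: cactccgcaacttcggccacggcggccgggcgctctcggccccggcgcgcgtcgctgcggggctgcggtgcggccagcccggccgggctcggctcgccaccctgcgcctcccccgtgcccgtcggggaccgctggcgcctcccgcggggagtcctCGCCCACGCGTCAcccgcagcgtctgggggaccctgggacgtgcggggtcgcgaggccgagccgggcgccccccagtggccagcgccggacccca

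The Htr1b window held none of the 5 motifs. The Htr2c window held 1 AP-1 site, a motif found in 6.75% of 32851 promoter windows of the same length. The Htr7 window held 1 EGR site and 1 CRE core, which share a base, and 82% of its bases were G or C. The EGR site occurs in 4.70% of all windows and the CRE core in 17.8%, while the GC box and the TATA box, absent from these 3 windows, occur in 32.7% and 12.4%. RefSeq promoters of 8 of the 9 members were used, with 10 windows in all, and the EGR site was found in 1 of the 10, that of Htr7. Member windows on a chromosome that was set aside were not used, and Htr4 had no window in the set. The shares over all windows kept that chromosome. A match describes letters in the window and is not evidence of a factor bound there.

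Levels were compared between genes as FPKM (fragments per length of transcript and library size), which the authors scaled to transcript length. By FPKM, Htr1b was the most abundant receptor transcript in D1 WT at 12.2, ahead of Htr2c at 9.95, Htr1d at 7.34 and Htr6 at 4.49. In CPM, which is not scaled to length, Htr1b at 16.0 lay below Htr2c at 47.5 and Htr1d at 21.8 in that library. Its first place therefore rests on the transcript lengths used. Htr2c led in the other 3 libraries, with 17.7 FPKM in D1 Q175 and, among D2 neurons, 17.4 in WT and 27.7 in Q175. Htr1b and Htr1d were level in D2 WT, at 8.60 and 8.59 FPKM with overlapping counting intervals. In D2 Q175, Htr1b had 2.87 FPKM and an interval that overlapped that of Htr6 at 3.64, below Htr1d at 7.81. Htr5a lay between 1.20 and 1.84 FPKM and Htr2a between 0.684 and 1.24 in all 4 libraries. The lowest level was that of Htr7 in both D1 libraries, 0.0248 and 0.130 FPKM (the latter with an interval that overlaps that of Htr4 at 0.213), and that of Htr1f in both D2 libraries, 0.165 and 0.168 FPKM.

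**Figure D1:**
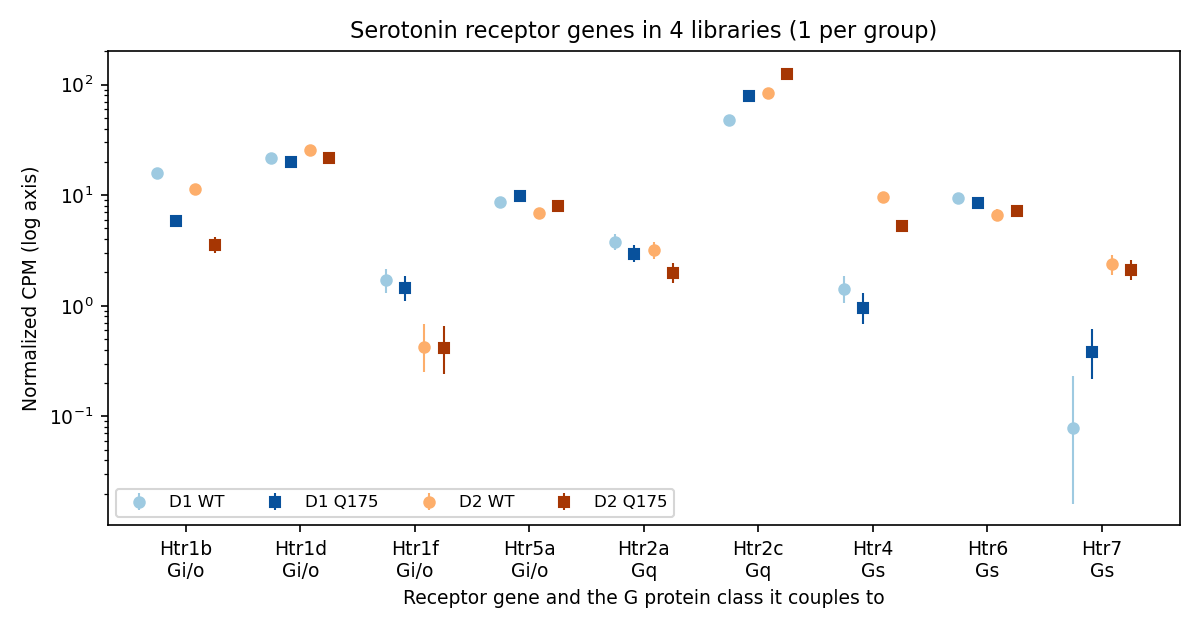
Normalized CPM (log axis) of the 9 receptor genes in each library, grouped by the G protein class of the receptor. Points are single libraries and bars are exact 95% Poisson intervals, which cover counting error only. Htr1b is lower and Htr2c higher in both Q175 libraries, and Htr4 and Htr7 are higher in the D2 libraries.

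The make-up of the receptor pool can be read from the same FPKM values. The 9 genes summed to 37.7 FPKM in WT and 38.0 in Q175 among D1 neurons, and 42.9 and 46.2 among D2 neurons. FPKM is not scaled by TMM. Over all genes tested, the median Q175 minus WT estimate was 0.083 log2 units on FPKM (pseudocount 0.1), against -0.0036 with TMM. The comparison of these sums between genotypes therefore depends on the scaling. Htr2c took 26.4% of that sum in WT and 46.6% in Q175 among D1 neurons, and 40.6% and 59.9% among D2 neurons. Htr1b took 32.4% and 12.6% in the D1 libraries and 20.0% and 6.21% in the D2 libraries, WT first. The Gi/o-coupled members together made up 57.6% in WT and 38.1% in Q175 among D1 neurons, and 43.2% and 26.7% among D2 neurons. The Gq-coupled members made up 29.7%, 49.3%, 43% and 61.4% in that order. The Gs-coupled members stayed between 11.9% and 13.8%. These shares rest on the transcript lengths used for FPKM, and no replicate check exists for them.

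**Figure D2:**
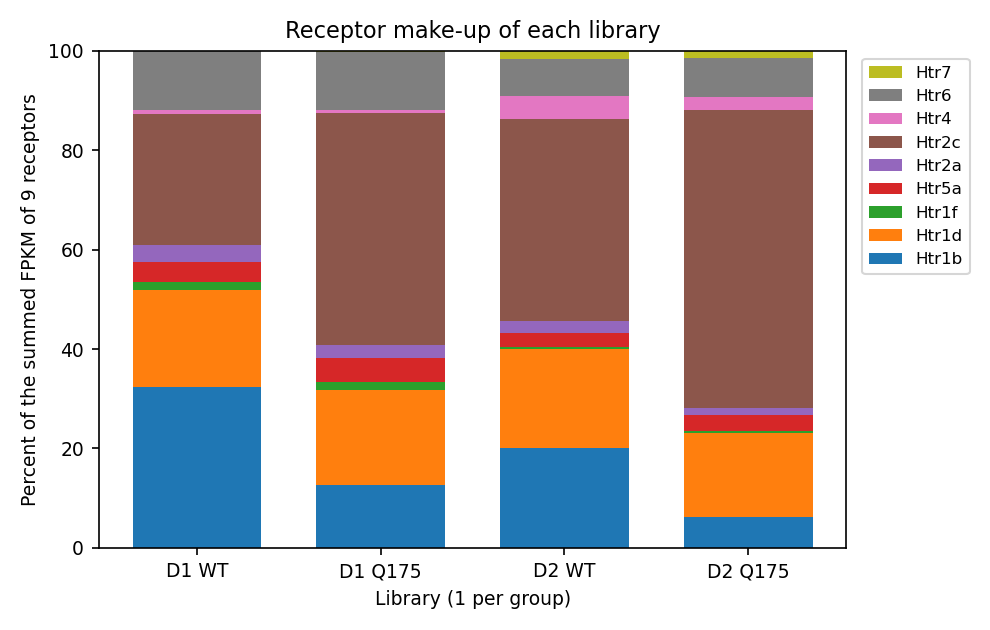
Share of each receptor gene in the summed FPKM of the 9 receptors (percent) in each library, 1 library per group. The Htr2c band is wider in each Q175 library than in the WT library of the same cell type, 46.6% against 26.4% in D1 and 59.9% against 40.6% in D2, and the Htr1b band is narrower.

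The comparison of Q175 with WT asked how the knock-in changes receptor transcripts in each pathway. An effect shared by D1 and D2 neurons was tested with the edgeR quasi-likelihood test in an additive fit to all 4 libraries and 15651 genes, two-sided, with Benjamini-Hochberg adjustment at 0.05. In that fit Htr1b and Htr4 fell and Htr2c rose, so 2 of 9 members were called lower and 1 of 9 higher. The background over all genes was 14.1% called lower and 12.8% called higher, so neither count sets the family apart. The median estimate of the 9 members was -0.18 log2 units, against 0.00 for all genes tested. All 6 spiny neuron marker genes were also called lower in this fit (list median -0.66). Of 6 D2 neuron markers, 4 were called lower and 0 higher (list median -0.81). Of 7 D1 neuron markers, 4 were called lower and 1 higher (list median -0.32). The part of these falls in the lower receptor values was not tested. Scaled by library totals in place of TMM, the split of calls over all genes moved from 47.5% higher to 67.2% higher, and the member calls did not change. Without a term for cell type, 0 of 9 members were called (adjusted p = 0.11 for Htr1b, 0.35 for Htr2c and 0.72 for Htr4). With 1 residual degree of freedom, the p-values rest on how far the genotype effects of D1 and D2 lie apart, moderated across genes, and genotype cannot be told apart from any batch that the Q175 pools have in common.

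Among the Gi/o-coupled receptors, Htr1b (ENSMUSG00000049511) stood at 16.0 CPM in WT and 5.84 in Q175 among D1 neurons, and 11.3 and 3.56 among D2 neurons. Both Q175 libraries lay below both WT libraries. Between the D1 libraries the log2 ratio (Q175 over WT) was -1.45 (counting interval -1.68 to -1.24), a 2.73-fold lower level, and -1.65 in D2 (-1.93 to -1.40), a 3.14-fold lower level. The shared effect was -1.55 ± 0.14 log2 units (SE; adjusted p = 1.5e-07; lower in both cell types). Deposited counts of Htr1b were not whole numbers (613 in D1 WT after rounding), so its level is an estimate and less certain than those given as whole counts.

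Htr1d, the closest relative of Htr1b and like it a target of the triptan drugs, did not pass the test. It stood at 21.8, 20.2, 25.7 and 21.8 CPM in D1 (WT, then Q175) and D2 (WT, then Q175), and the estimate was -0.18 ± 0.10 (adjusted p = 0.21). The genotypes overlapped for this gene, although the D2 ratio of -0.24 had an interval below 0 (-0.37 to -0.11). Htr1f had 65, 60, 17 and 18 counts in the same order, and its estimate of -0.18 ± 0.31 (adjusted p = 0.71) has a wide error. Htr5a, which encodes a Gi/o-coupled receptor of the forebrain, stood at 8.68, 9.86, 6.87 and 8.06 CPM, with an estimate of 0.21 ± 0.13 (adjusted p = 0.26). Its ratio was 0.18 in D1 and 0.23 in D2, and both counting intervals included 0.

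Of the Gq-coupled receptors, Htr2c (ENSMUSG00000041380, on the X chromosome) had 1817 counts in WT and 3313 in Q175 among D1 neurons, and 3312 and 5516 among D2 neurons. These counts are 47.5, 79.3, 83.3 and 126 CPM, so D1 Q175 reached nearly the level of D2 WT, and each Q175 library lay above the WT library of its own cell type. Set against WT, Q175 gave a log2 ratio of 0.74 in D1 (0.66 to 0.82) and 0.60 in D2 (0.53 to 0.66), or 1.67-fold and 1.51-fold. In the shared fit Htr2c rose by 0.67 ± 0.08 log2 units (adjusted p = 7.1e-06; higher in both cell types). The D2 effect minus the D1 effect was -0.14, with a counting SE of 0.05, and this difference was not tested because each group had 1 library.

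Htr2a, the receptor through which classical psychedelics act, ran the other way. Its levels were 3.79 CPM in WT and 2.97 in Q175 among D1 neurons, and 3.20 and 1.99 among D2 neurons. Both Q175 libraries lay below both WT libraries, but the estimate of -0.51 ± 0.20 did not pass (adjusted p = 0.059). The D1 ratio was -0.35 (-0.71 to 0.00) and the D2 ratio -0.67 (-1.10 to -0.28).

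The Gs-coupled Htr4 (ENSMUSG00000026322) stood at 1.41 CPM in WT and 0.957 in Q175 among D1 neurons, and 9.59 and 5.30 among D2 neurons. It was lower in Q175 by a log2 ratio of -0.54 in D1 (-1.19 to 0.06, from 54 and 40 counts) and -0.85 in D2 (-1.10 to -0.62, from 381 and 232 counts). The shared effect of -0.77 ± 0.18 passed in edgeR (adjusted p = 0.0042) but not with the DESeq2 Wald test (adjusted p = 0.14) or with limma on FPKM (adjusted p = 0.11 with either pseudocount). Without a filter on low counts the edgeR value was 0.037.

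Htr6, a Gs-coupled receptor gene, stood at 9.44, 8.45, 6.64 and 7.19 CPM in D1 (WT, then Q175) and D2 (WT, then Q175). Its estimate was -0.03 ± 0.14 (adjusted p = 0.91) and changed sign to 0.06 when scaled by library totals. Htr7 had 3 counts in WT and 16 in Q175 among D1 neurons, and 94 and 92 among D2 neurons. Its ratio was 1.75 in D1, with an interval from 0.48 to 4.71 that rests on 3 counts, and -0.17 in D2 (-0.60 to 0.26). The shared estimate of 0.23 ± 0.36 did not pass (adjusted p = 0.67).

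**Figure D3:**
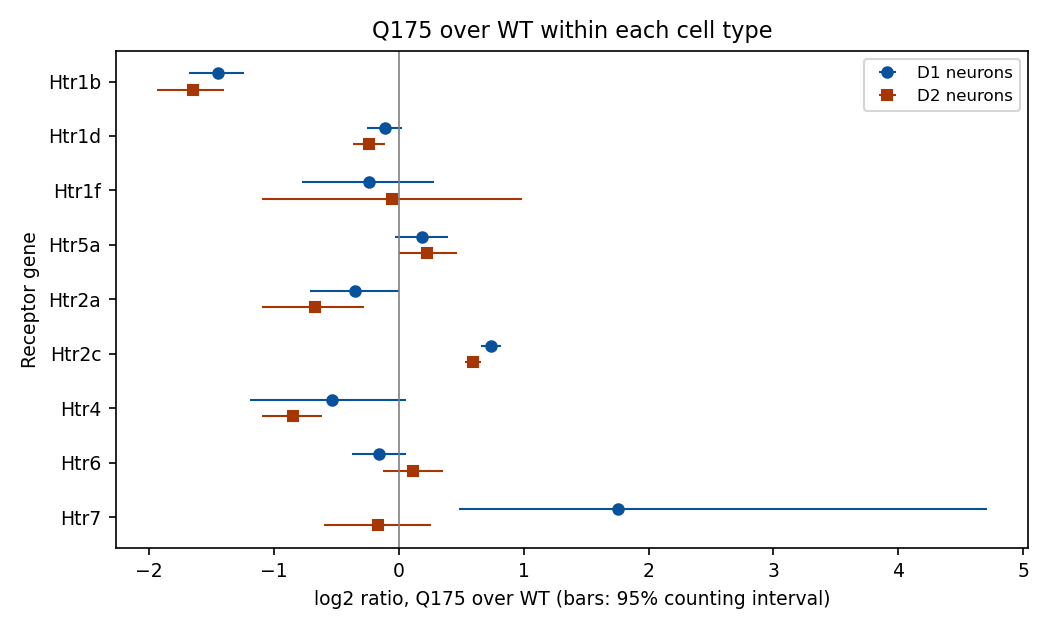
Log2 ratio of Q175 over WT for each receptor gene within D1 neurons (circles) and D2 neurons (squares). Bars are 95% counting intervals between 2 single libraries. Htr1b lies at -1.45 and -1.65 and Htr2c at 0.74 and 0.60, while the interval of Htr7 in D1 is the widest.

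The comparison of D2 with D1 neurons asked which receptor transcripts differ between the pathways. In the same fit, 3 of 9 members, Htr2c, Htr4 and Htr7, were higher in D2, where 6.03% of all genes were called. Htr1b and Htr1f, 2 of 9, were lower in D2, where 6.69% of all genes were called. Without a term for genotype, 0 of 9 were called. Both comparisons use the same 4 libraries. The median estimate of the members was -0.31 log2 units, against 0.00 for all genes tested.

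Htr7 (ENSMUSG00000024798), with the promoter rich in G and C printed above, stood at 2.36 CPM in D2 WT against 0.0784 in D1 WT, where it had 3 counts. The log2 ratio of D2 over D1 was 4.22 in WT (3.32 to 7.22) and 2.32 in Q175 (1.68 to 3.32). The fitted effect was 3.25 ± 0.40 (adjusted p = 8.1e-06; higher in D2 in both genotypes). All 9 members passed the filter on low counts, and Htr7 alone had a library below its minimum of 0.245 CPM, D1 WT. Both D2 libraries lay above both D1 libraries. The cholinergic marker Slc5a7, a gene of interneurons that are known to express Drd2 as well, had 0 and 1 counts in D1 WT and D1 Q175 and 11 and 32 in D2 WT and D2 Q175. Chat, the other cholinergic marker matched, had 18, 10, 25 and 33 counts in D1 (WT, then Q175) and D2 (WT, then Q175). Npy, another interneuron marker on the list, ran the other way, with 206, 137, 8 and 8 counts in that order. Of 7 interneuron markers tested, 2 were called higher and 1 lower in D2 (background 6.03% and 6.69%). The 9 interneuron markers matched, of 10 listed, summed to 11.9, 7.99, 7.62 and 9.80 CPM in D1 (WT, then Q175) and D2 (WT, then Q175). The part of these markers in the Htr7 result was not tested.

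Htr4 was 6.59-fold higher in D2 than in D1 neurons of WT (log2 ratio 2.72, 2.35 to 3.20) and 5.32-fold higher in those of Q175 (2.41, 1.98 to 2.99). Its fitted effect was 2.63 ± 0.19 (adjusted p = 4.7e-09). Htr2c had ratios of 0.81 in WT (0.73 to 0.89) and 0.67 in Q175 (0.61 to 0.73), with a fitted effect of 0.74 ± 0.08 (adjusted p = 2.3e-06). For both genes the D2 library lay above the D1 library of the same genotype.

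Htr1f (ENSMUSG00000050783), a Gi/o-coupled receptor gene and the target of the migraine drug lasmiditan, was lower in D2, at 0.428 and 0.411 CPM in D2 WT and D2 Q175 against 1.70 and 1.44 CPM in D1 WT and D1 Q175. Its fitted effect of -1.89 ± 0.32 passed in edgeR (adjusted p = 0.00034) and just missed with DESeq2 (adjusted p = 0.053). Markers of cortical projection neurons differed in the same direction. All 4 were detected, and their sum was 4.99 and 7.54 CPM in D1 WT and D1 Q175 against 0.881 and 1.8 CPM in D2 WT and D2 Q175. Slc17a7, the vesicular glutamate transporter gene among them, had 141, 192, 12 and 30 counts in D1 (WT, then Q175) and D2 (WT, then Q175). Their part in the Htr1f difference was not tested.

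Htr1b was 1.42-fold lower in D2 than in D1 neurons of WT (log2 ratio -0.51, -0.69 to -0.33) and 1.63-fold lower in those of Q175 (-0.71, -1.01 to -0.42). The fitted effect of -0.59 ± 0.13 passed in edgeR (adjusted p = 0.0049) but not with DESeq2 (adjusted p = 0.10) or without a filter on low counts (adjusted p = 0.064). Htr6 had ratios of -0.50 in WT and -0.23 in Q175, and the estimate of -0.37 ± 0.14 did not pass (adjusted p = 0.089). Htr5a (-0.31 ± 0.13), Htr2a (-0.40 ± 0.20) and Htr1d (0.17 ± 0.10) did not pass either, with adjusted p of 0.13, 0.20 and 0.29.

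**Figure D4:**
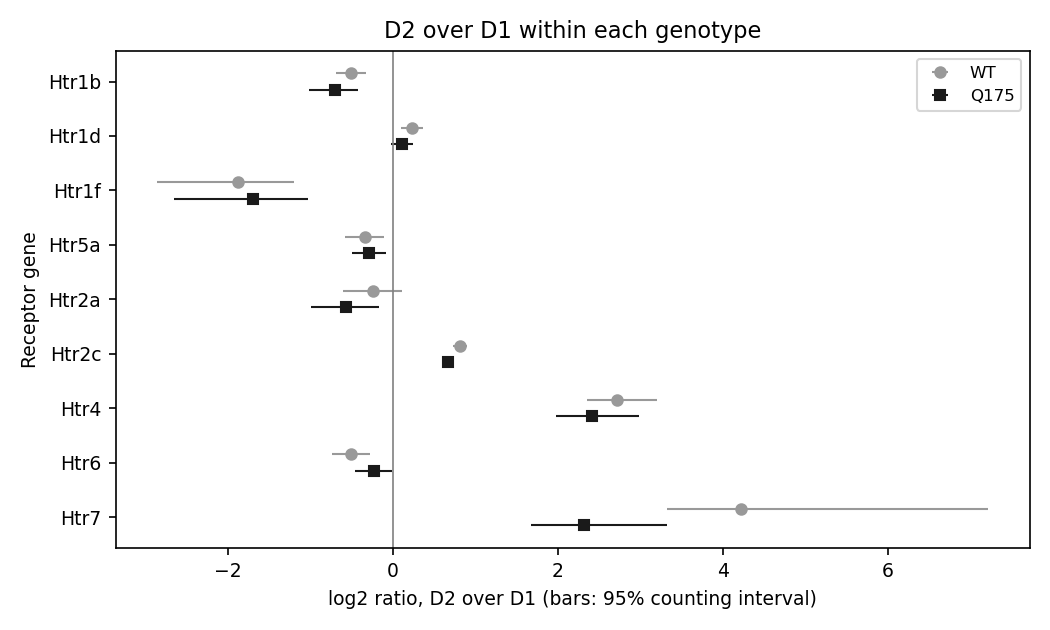
Log2 ratio of D2 over D1 for each receptor gene within WT (grey circles) and Q175 (black squares). Bars are 95% counting intervals between 2 single libraries. Htr4 and Htr7 lie to the right in both genotypes, at 2.72 and 2.41 and at 4.22 and 2.32, and Htr1f to the left, at -1.87 and -1.70.

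Patterns were also compared with other genes. With the 4 log2 CPM values of each gene centred on their mean, the genes nearest to Htr1b among 10438 with at least 5 CPM in any library were Ryr1 (Euclidean distance 0.14 log2 units), Plekhg4 (0.26) and Vwa7 (0.30). Ryr1, a calcium release channel gene, stood at 425, 159, 317 and 110 CPM in D1 (WT, then Q175) and D2 (WT, then Q175). For Htr7 the nearest were Trpc4 (0.54), H2-T10 (0.60), which belongs to a family of close copies, and Gnas (0.78), a locus of overlapping transcripts with an uncertain count. These distances rest on 4 libraries and describe the pattern alone.

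Other genes of serotonin handling were followed as a list of 9, of which 6 passed the filter. In Q175, 4 of these 6 rose and 1 fell in edgeR, where 12.8% of all genes were called higher and 14.1% lower, and with DESeq2 2 rose and 1 fell. Ddc, the decarboxylase that makes serotonin and dopamine, had 4 counts in WT and 12 in Q175 among D1 neurons, and 12 and 73 among D2 neurons (estimate 2.19 ± 0.44, adjusted p = 0.0011). The monoamine transporter gene Slc29a4 rose by 1.46 ± 0.26 log2 units, with 0.680 CPM in WT and 2.30 in Q175 among D1 neurons, and 1.06 and 2.47 CPM among D2 neurons. The monoamine oxidase genes Maob (0.92 ± 0.19) and Maoa (0.51 ± 0.11) rose, and the transporter gene Slc22a3 (-0.47 ± 0.11) fell, the last pair named after their values were seen. The glial marker sums given above were also higher in the Q175 library of each cell type, and their part in this list was not tested. Tph1 had 0 counts in all 4 libraries. Tph2, the neuronal enzyme of serotonin synthesis, had at most 5 counts and the serotonin transporter gene Slc6a4 at most 4 counts, so neither was tested.

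Genes of the Gq pathway, through which Htr2a and Htr2c signal, were called lower in 7 of 11 and higher in 0 of 11 (edgeR, against the background of 14.1% and 12.8%). At an unadjusted p under 0.05 the counts were 8 lower and 0 higher, and DESeq2 called 7 lower and 0 higher. The list median was -0.55 log2 units, against 0.00 for all genes tested. Dgkb, a diacylglycerol kinase gene, fell by 0.87 ± 0.08, Plcb3 by 1.33 ± 0.16 and Plcb1 by 0.68 ± 0.08. The phospholipase gene Plcb1 stood at 430, 261, 387 and 247 CPM in D1 (WT, then Q175) and D2 (WT, then Q175). All 6 spiny neuron marker genes also fell in this fit, and their part in the Gq list was not tested.

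Among 7 tested genes of Gi/o coupling, 2 rose and 1 fell (background 12.8% and 14.1%), and with DESeq2 1 rose and 1 fell. Gnai2 rose by 0.67 ± 0.11 and the channel gene Kcnj3 by 0.41 ± 0.14, and Gnao1 fell by 0.35 ± 0.09. Of 12 tested genes of Gs coupling, 3 rose and 4 fell (background 12.8% and 14.1%), and with DESeq2 1 rose and 3 fell. Among them were the adenylyl cyclase genes Adcy5 (-0.83 ± 0.09) and Adcy9 (-0.94 ± 0.13), which fell, and Gnas (0.55 ± 0.09), which rose, all in edgeR. The uncertainty of the Gnas count, given above, applies here too.

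Of 15 tested genes of receptor partners and trafficking, 2 rose, a share near the background of 12.8%, and 5 fell, where the background was 14.1%. With DESeq2 2 rose and 4 fell. S100a10, whose product p11 binds the 5-HT1B and 5-HT4 receptors and raises their level at the cell surface, fell by 0.79 ± 0.14 (adjusted p = 0.00029). It stood at 11.9 and 7.18 CPM in D1 WT and D1 Q175 and at 7.85 and 4.36 CPM in D2 WT and D2 Q175. S100a10, Htr1b and Htr4 were each lower in the Q175 library of both cell types, though the D1 interval of Htr4 (-1.19 to 0.06) included 0. All 6 spiny neuron marker genes also fell in the same fit, and a link between S100a10 and the receptors was not tested. The receptor kinase gene Grk3 rose by 1.16 ± 0.21, and the scaffold gene Dlg4 fell by 0.39 ± 0.09. Of the gene family of RNA adenosine deaminases (Adar, Adarb1 and Adarb2), 0 of 3 passed in edgeR. The count was also 0 at an unadjusted p under 0.05 and 0 with DESeq2. The estimates of Adar, Adarb1 and Adarb2 were -0.14 ± 0.08, -0.11 ± 0.08 and 0.15 ± 0.12. Whether each of the 3 edits RNA was not examined. Editing of Htr2c itself was not analysed here.

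**Figure D5:**
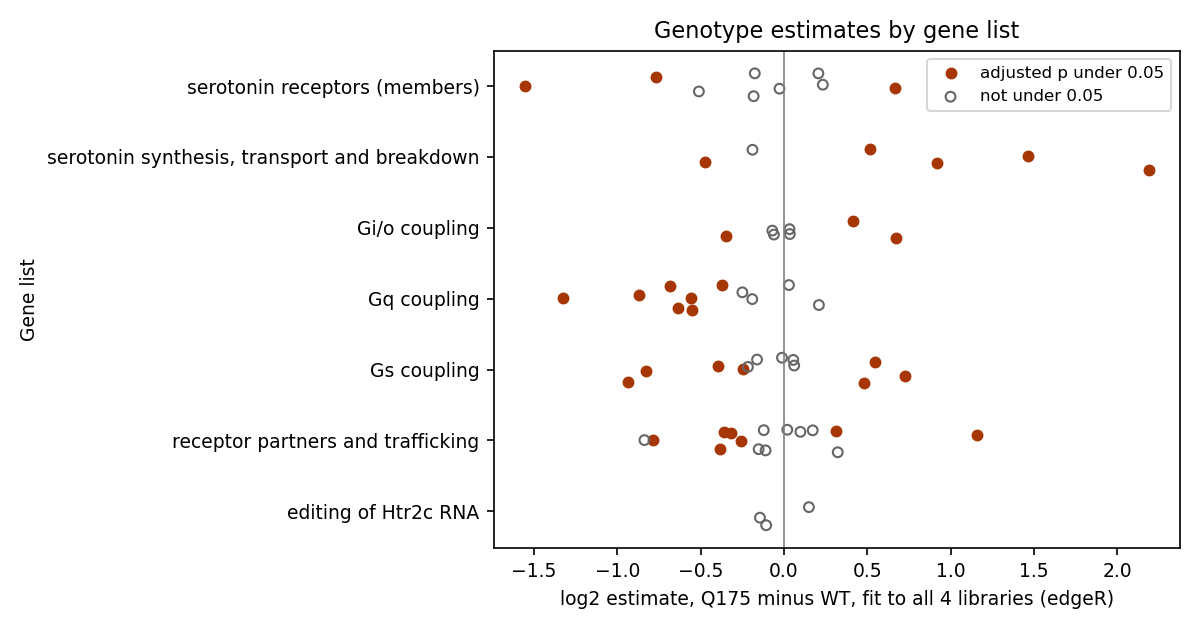
Genotype estimates (log2, Q175 minus WT, edgeR fit to all 4 libraries) of the 9 receptors and of genes in 6 lists of serotonin handling and receptor signalling. Filled points passed at an adjusted p under 0.05 and open points did not, and the vertical scatter has no meaning. In the Gq list, 7 of 11 points are filled and lie to the left of 0.

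The 5 other serotonin receptor genes had few counts in any library. Htr1a, the autoreceptor of raphe neurons, had 1, 2, 1 and 9 counts in D1 (WT, then Q175) and D2 (WT, then Q175). Htr5b had 5, 9, 2 and 2 counts, Htr2b at most 3 and Htr3b at most 4. Htr3a, the channel subunit gene found in interneurons, had 1, 2, 0 and 1 counts. Its count of 0 in D2 WT allows a level of up to 0.0755 CPM when 3 counts are taken as the limit, and up to 0.0928 CPM by the exact two-sided 95% Poisson interval used for levels. None of the 5 passed the filter, so no test was made.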

How the data were processed

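RNA sequencing was done on EGFP-sorted neurons in 4 libraries, with reads 50 nt long in pairs, per the series design text. The labels' protocol speaks of flash-frozen tissue and the design text of sorted cells. The deposited expected counts (estimated counts per Ensembl gene) were left unnormalized by the authors, judged from the values, of which 15.1% lay more than 0.01 from a whole number. The deposited FPKM values are relative to length and depth as the authors computed them, going by the file title. The submitters' processing notes list CASAVA 1.8.2. Aligner, counter and build were not given in the sources used here.

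Symbols were matched for 32897 of 37620 identifiers. Counts were rounded, normalized by TMM in edgeR 4.0.16 (R 4.3.3) and filtered with filterByExpr. The additive fit had cell type and genotype as terms. Fitted SEs are the estimate divided by the root of F. Ratios used a prior count of 2 and exact conditional binomial intervals at 95%, levels exact Poisson intervals. DESeq2 1.42.0 and limma 3.58.1 on FPKM were alternatives. The distance between patterns used log2 of CPM plus 0.1. The members, the lists, the motifs and the tests were chosen with earlier results of these data known. From each list the 3 called genes with the smallest adjusted p were named, and the motifs and the shares of summed FPKM were added after the levels were seen. The labels name pools and no replicates, so no spread within a group was measured. The p-values rest on how far the genotype effects of D1 and D2 lie apart, moderated across genes.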

Additional observations from a re-analysis of the deposited data

How the results depend on the processing

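Depth was 38.2 to 43.8 counts per CPM, which limits Htr1f and Htr7. Genotype calls over all genes (1999 higher, 2207 lower) became 748 and 1234 with the DESeq2 Wald test, 1002 and 1180 without a filter on low counts, and 2 and 2 without a term for cell type. The lower calls numbered 1382 with library totals, 1140 with FPKM and a pseudocount of 0.1, and 989 with a pseudocount of 1. Members called lower in Q175 went from 2 to 1 with DESeq2 and with FPKM at either pseudocount, where Htr4 was lost. Cell type calls (943 higher, 1047 lower) became 382 and 498 with DESeq2, 286 and 377 without a filter, 628 and 691 with FPKM at 0.1, 471 and 530 with FPKM at 1, and 32 and 46 without a term for genotype. Members called lower in D2 went from 2 to 0 with DESeq2, to 1 without a filter and to 1 at a minimum of 5 CPM. That minimum left 6 members, without Htr1f, Htr2a and Htr7, so members called higher in D2 went from 3 to 2. Without a term for the other factor, 0 members were called in either direction for genotype and 0 for cell type, since the other factor then enters the spread. The other causes were not tested. Htr6 changed the sign of its genotype estimate to 0.0613 with library totals, 0.0914 with FPKM at 0.1 and 0.0723 with FPKM at 1, and was not called in any of them. The calls of Htr1b and Htr2c for genotype held under the 8 other alternatives, with adjusted p up to 0.0044 and 0.0077. Of the ratios within a cell type or genotype, 200 alternative values stayed inside the counting interval and 16 moved outside it. None of the 16 changed sign. Of the 16, the D2 over D1 ratio of Htr7 in WT went from 4.22 to 2.77 and 0.77 on the FPKM scale, where the pseudocount is large beside the level. Inside its interval, the Q175 over WT ratio of Htr1f in D2 changed sign. It went from -0.0516 to 0.0174 with library totals, 0.0124 with FPKM at 0.1 and 0.00284 with FPKM at 1. No pairing of replicates was possible because each group had 1 library and the labels give no replicate numbers. The cell type term of the fit already compares Q175 with WT within each cell type. Leaving out a library leaves no residual degree of freedom, so that was not run.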
